A study of Mus musculus with 4 samples.

Results

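The genes described here are the 9 voltage-gated potassium channel genes Kcnd2, Kcnd3, Kcnip2, Kcna4, Kcna5, Kcnq1, Kcne1, Kcnh2 and Kcnv2, which carry or shape repolarising potassium current in heart muscle. They were taken by symbol from the 29595 gene rows of the deposited read table, and all 9 had a row there. The study sequenced polyadenylated RNA from the right ventricle of 4 adult mice on a mixed background of C57BL/6, 2 Ezh2-deficient mutants (mutant 1 and mutant 3) and 2 wild types (wild type 1 and wild type 2). Ezh2 is the histone methyltransferase of Polycomb repressive complex 2. The labels give no treatment, exact age or sex, and do not name the driver of the deletion, the part of Ezh2 removed or the cells in which it is lacking.

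Voltage-gated potassium channels open when the membrane depolarises and let potassium leave the cell, which ends the action potential. In the mouse ventricle the early repolarisation is carried mainly by the fast transient outward current, whose pore subunits are the Shal-type proteins Kv4.2 (Kcnd2) and Kv4.3 (Kcnd3) with the calcium-binding accessory subunit KChIP2 (Kcnip2). Kv1.4 (Kcna4) carries a slow transient outward current, and Kv1.5 (Kcna5) a slowly inactivating current. Kcnq1 with Kcne1 forms the slow delayed rectifier, and Kcnh2, the ERG channel, the rapid delayed rectifier, both better known from larger mammals than from adult mice. Kcnv2 encodes a silent subunit, which does not conduct alone and modifies other Kv channels.

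The libraries held 18177642 to 23853394 reads. A duplex-specific nuclease had been used on them to remove part of the abundant transcripts, so that levels do not scale with RNA in the same way for every gene. Y-linked reads (Ddx3y, Eif2s3y and Uty summed) were 1350 and 1198 in mutants 1 and 3 and 7 and 3 in wild types 1 and 2. Sex and genotype therefore cannot be told apart in any value below, and in mice the ventricular level of Kcna5 is known to depend on androgen. Ezh2 itself had 73 and 70 reads in mutants 1 and 3 and 77 and 67 in wild types 1 and 2, and this row does not check the labels because the deleted part is not named. The 2 wild-type libraries differed from each other by base composition of the transcript. The median log2 ratio of wild type 1 to wild type 2 was -0.48 over the 3282 most AT-rich rows with a known transcript (31.9% to 45.6% GC) and 0.35 over the 3282 most GC-rich (55.1% to 72.8%). Between the mutants the same medians were 0.00 and -0.01. In a bulk tissue, fewer cells of a type and less RNA per cell cannot be told apart.

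All 9 genes passed the filter on low counts and were tested. Of the 9, 8 had both mutants below both wild types, the exception being Kcna4. Over all 16128 tested rows, 22.4% lay below in this way and 22.3% above. The median log2 fold change of the 9 genes was -0.61 and that of all tested rows 0.00. The 9 genes were chosen with earlier results of these data known, so comparisons of them with all rows are a description only. By edgeR's quasi-likelihood test 0 of the 9 reached an adjusted p below 0.05, where 0.130% of all rows did so and 0.0248% as lower in mutant hearts. At an unadjusted p under 0.05, 3 of the 9 were lower (Kcnd2, Kcne1 and Kcnv2) and 0 higher, against 4.38% and 6.49% of all rows. By DESeq2, 2 of the 9 passed as lower, Kcnd2 and Kcne1, against 0.242% of the rows for which it gives an adjusted p.

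**Figure D1:**
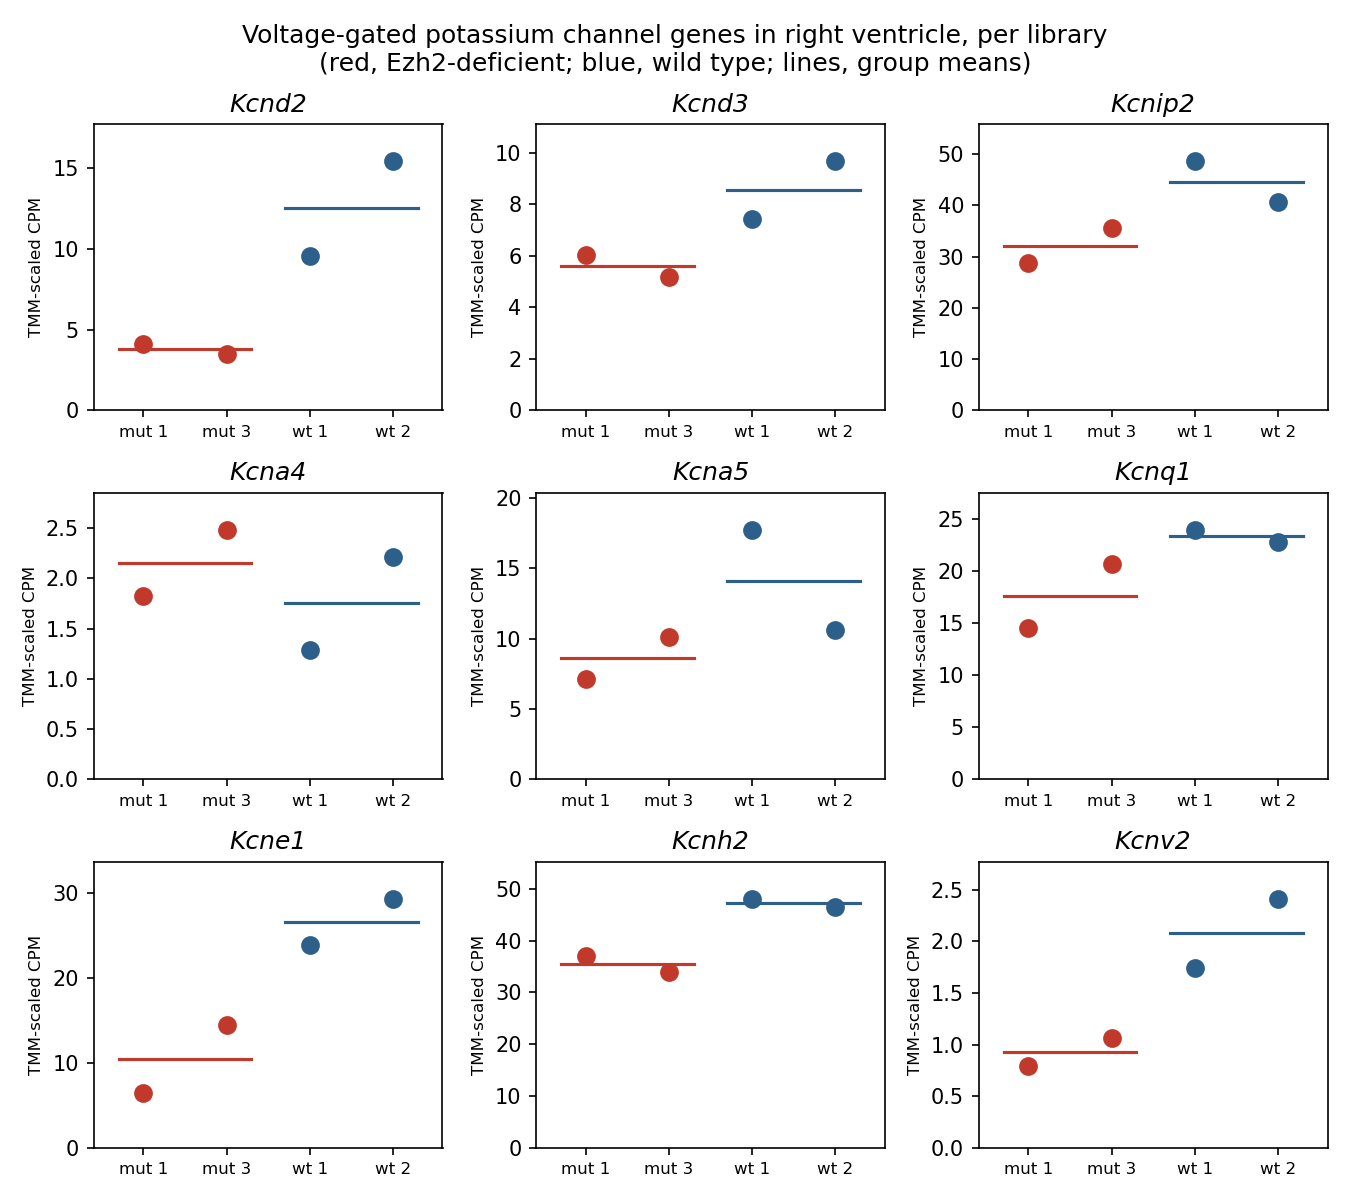
Level of each of the 9 channel genes in each library, in TMM-scaled CPM on a linear axis from 0, with red points for mutants 1 and 3, blue points for wild types 1 and 2 and lines for the group means. In 8 panels both red points lie below both blue points, while for Kcna4 the groups overlap.

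Kcnd2 (chromosome 6, 21166109 to 21679805 on mm9, plus strand) showed the largest difference of the 9. It had 88 and 69 reads in mutants 1 and 3 and 214 and 306 reads in wild types 1 and 2. After TMM scaling, which sets libraries to a common depth and is given as CPM (reads in a library scaled to a fixed total), these were 4.11 and 3.50 CPM against 9.53 and 15.4 CPM. The lower wild type was 2.32 times the higher mutant, although the wild types themselves differed 1.62-fold. The mutant mean was 3.80 ± 0.430 CPM (SD, n = 2) and the wild-type mean 12.5 ± 4.15 CPM, 3.27 times as high. On the log2 scale the fold change, mutant over wild type, was -1.71 ± 0.32 (SE; edgeR adjusted p = 0.136, 84th of 16128 rows by p). Only 0.273% of tested rows had a lower log2 fold change. DESeq2 gave Kcnd2 an adjusted p of 0.00373, and with a correction for GC content and transcript length edgeR gave 0.0233. Over the 9 alternatives that keep all libraries, the adjusted p ranged from 0.00184 with total counts to 0.183 without rows on X and Y and abundant rows. Of these, DESeq2, total counts, no filter and the GC and length correction made the call. Over all 13 alternatives the log2 fold change ranged from -2.01 without wild type 1 to -1.33 without wild type 2.

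Kcnd3 (chromosome 3, 105255248 to 105476920, plus strand), the other Shal-type pore gene of the heart, differed less. Its levels were 6.02 and 5.17 CPM in mutants 1 and 3 and 7.44 and 9.66 CPM in wild types 1 and 2, so the groups did not overlap but the lower wild type was only 1.24 times the higher mutant. Its log2 fold change was -0.61 ± 0.28 (edgeR adjusted p = 0.483). The value was -0.41 with wild type 2 left out and -0.78 with wild type 1 left out, and -0.40 with the correction for GC content and length.

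The 2 pore genes can be weighed against each other within each heart. Kcnd2 supplied 40.6% (95% Clopper-Pearson interval 34.0 to 47.4) of the summed Kcnd2 and Kcnd3 reads in mutant 1 and 40.4% (32.9 to 48.1) in mutant 3. In the wild types it supplied 56.2% (51.0 to 61.2) and 61.4% (57.0 to 65.7). The intervals of the mutants lie wholly below those of the wild types, and they cover counting error only. This share is taken within a library, does not depend on the scaling between libraries and is not corrected for transcript length or base composition. The mean difference was -18.4 percentage points, and an exact two-sided permutation test gave p = 0.333, the smallest p that 2 against 2 libraries allow.

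Kcnip2 (chromosome 19, 45868160 to 45890293, minus strand), whose protein KChIP2 is needed for Kv4 channels to reach the surface in number, was read more deeply than Kcnd2 and Kcnd3. Mutants 1 and 3 held 614 and 702 of its reads, wild types 1 and 2 held 1091 and 807, or 28.7 and 35.6 CPM against 48.6 and 40.6. The groups did not overlap, with the nearest libraries of the groups, mutant 3 and wild type 2, only 1.14-fold apart. This is a log2 fold change of -0.47 ± 0.23 (edgeR adjusted p = 0.505), and -0.29 without mutant 1. Reads of Kcnip2 per read of Kcnd2 plus Kcnd3 numbered 2.83 and 4.11 in mutant hearts against 2.86 and 1.62 in wild-type hearts. This ratio overlapped between the groups (exact two-sided permutation p = 0.667), and between the wild types Kcnip2 and Kcnd2 were ordered in opposite ways. Their transcripts hold 56.4% and 44.4% GC, in the GC-rich and AT-rich ranges over which the wild types differed in opposite directions. The ratio is not corrected for base composition, and the part of base composition in it was not tested.

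**Figure D2:**
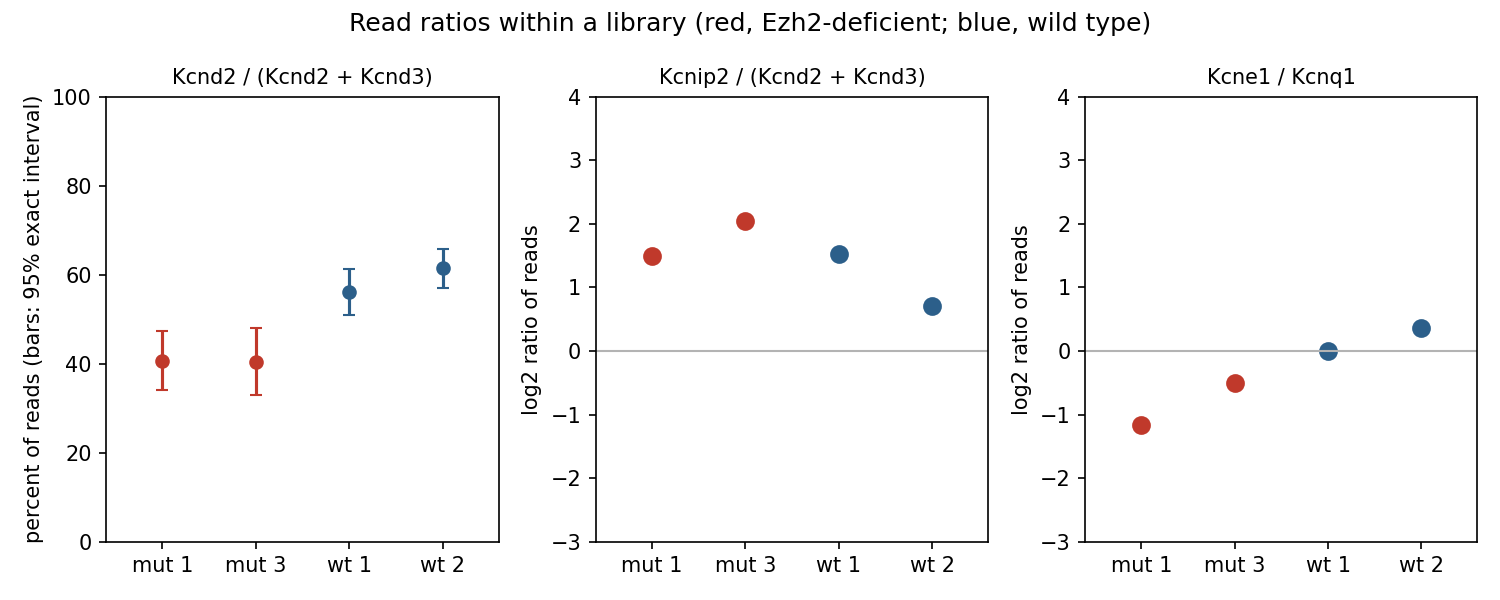
Ratios of reads within each library, with red points for mutants and blue points for wild types. The left panel gives the Kcnd2 share of Kcnd2 plus Kcnd3 reads in percent with its 95% exact interval (about 40% in both mutants, 56.2% and 61.4% in the wild types), and the other panels give log2 ratios of Kcnip2 to Kcnd2 plus Kcnd3 and of Kcne1 to Kcnq1.

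Of the 9 genes, 6 matched an entry of the RefSeq promoter table on GRCm38.p6 (Kcnd2, Kcnd3, Kcnip2, Kcna4, Kcna5 and Kcnh2). The windows hold 300 bases around the annotated start. CpG dinucleotides (the motif CG) were counted because Polycomb repressive complex 2 is known to act mainly at CpG-rich promoters. The 32851 windows of all genes had a median of 7, and 94.6% held at least 1. Kcnd2 had 26, Kcnd3 25, Kcna4 20, Kcnh2 19 and Kcnip2 18 of them, while Kcna5 had 4. RefSeq gives Kcna4 a span of 36216 bases against 7849 for the row of the table, so its window need not lie at the start of that row. RefSeq spans of the others were longer by less, with 514460 against 513697 for Kcnd2 and 222113 against 221673 for Kcnd3. For Kcnip2 they were 24077 against 22134, and for Kcna5 3005 against 2860. Those windows need not lie at the start of the row either. The 250 bases before the start are shown for the Shal-type pair, related pore genes whose differences were of unlike size, and for Kcna5, the member poor in CpG, each 5′ to 3′ on the gene's strand with CpG in capitals.
Kcnd2, chr6:21215096-21215345, plus strand: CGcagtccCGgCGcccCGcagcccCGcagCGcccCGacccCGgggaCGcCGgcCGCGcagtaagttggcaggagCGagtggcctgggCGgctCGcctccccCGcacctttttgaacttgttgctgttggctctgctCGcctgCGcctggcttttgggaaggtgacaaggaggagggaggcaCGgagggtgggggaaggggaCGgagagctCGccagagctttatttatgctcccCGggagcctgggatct
Kcnd3, chr3:105451640-105451889, plus strand: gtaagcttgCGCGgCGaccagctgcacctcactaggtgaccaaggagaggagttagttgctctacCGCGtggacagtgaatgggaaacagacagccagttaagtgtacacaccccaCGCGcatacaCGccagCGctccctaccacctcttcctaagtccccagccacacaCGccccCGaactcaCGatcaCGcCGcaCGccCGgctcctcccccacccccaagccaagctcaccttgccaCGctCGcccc
Kcna5, chr6:126535556-126535805, minus strand: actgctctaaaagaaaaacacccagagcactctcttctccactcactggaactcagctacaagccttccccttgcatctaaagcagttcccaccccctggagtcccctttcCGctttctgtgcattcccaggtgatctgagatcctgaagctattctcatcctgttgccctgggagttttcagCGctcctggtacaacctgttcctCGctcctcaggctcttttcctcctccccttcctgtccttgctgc
The motif ACANNTGT, which Iroquois factors bind and which reads the same on both strands, was in none of the 6 windows and in 7.38% of all windows. CACCC, read on both strands and bound by Krüppel-like factors, was in all 6 and in 57.5% of all windows. TATAAA, read on both strands, was in none of the 6 and in 13.6% of all. None of these motifs contains another, and CG can stand only at the N positions of ACANNTGT. CpG counts were thus above the median of all windows for Kcnd2, Kcnd3, Kcnip2, Kcnh2 and Kcna4, and below it for Kcna5. Kcnq1, Kcne1 and Kcnv2 had no window, and a relation of CpG count to the differences between the groups was not tested.

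Kcna4 (chromosome 2, 107130811 to 107138659, plus strand) was the member whose groups overlapped. Its reads numbered 39 and 49 in mutants 1 and 3 and 29 and 44 in wild types 1 and 2, or 1.82 and 2.48 CPM against 1.29 and 2.21. Its log2 fold change was 0.30 ± 0.43 (edgeR adjusted p = 0.839) and turned to -0.000101 with scaling by total counts and to -0.04 without wild type 1. With 29 to 49 reads in a library, no difference was detected in either direction.

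Kcna5 (chromosome 6, 126482571 to 126485430, minus strand) stood at 7.09 and 10.1 CPM in mutants 1 and 3 and at 17.7 and 10.6 CPM in wild types 1 and 2. Mutant 3 and wild type 2 were nearly level, 1.05-fold apart, and the distance between the groups came mostly from wild type 1. The log2 fold change of Kcna5 was -0.72 ± 0.32 (edgeR adjusted p = 0.472). It was -0.30 without wild type 1, -0.44 without mutant 1 and -1.05 without wild type 2. The gene lies beside the related pore genes Kcna1 and Kcna6 on the same strand, and no other row of the table starts and ends between them. Kcna1, 101 kb away, had 58 and 32 mutant reads against 103 and 98 wild-type reads. Kcna6, a further 62.5 kb on, had 35 and 17 against 76 and 36. All 3 genes of the cluster had both mutants below both wild types after scaling, as did 22.4% of all tested rows. The lower wild type was 1.69 times the higher mutant for Kcna1 and only 1.11 times for Kcna6. Their log2 fold changes were -1.13 ± 0.35 for Kcna1 (edgeR adjusted p = 0.325) and -1.05 ± 0.49 for Kcna6 (edgeR adjusted p = 0.494).

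Kcne1 (chromosome 16, 92346246 to 92359713, minus strand), the single-span subunit that slows the opening of Kcnq1 channels, showed the next largest difference after Kcnd2. It had 139 and 286 reads in mutants 1 and 3 and 537 and 583 in wild types 1 and 2, or 6.49 and 14.5 CPM against 23.9 and 29.3. The wild types were 1.23-fold apart, while the mutants were 2.24-fold apart, mutant 1 being the lower. The mutant mean was 10.5 ± 5.67 CPM (SD, n = 2) and the wild-type mean 26.6 ± 3.83. A log2 fold change of -1.34 ± 0.37 resulted (edgeR adjusted p = 0.267; DESeq2 adjusted p = 0.0428). Without mutant 1 it was -0.84, and without mutant 3 it was -2.00 (edgeR adjusted p = 0.00833). Over 13 alternatives the adjusted p ranged from 0.00340 to 1.00, and 6 made the call.

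Kcnq1 (chromosome 7, 150293159 to 150612947, plus strand), the pore gene, differed less than its partner. It stood at 14.5 and 20.7 CPM in mutants 1 and 3 and at 23.9 and 22.8 CPM in wild types 1 and 2, groups that did not overlap but were 1.10-fold apart at their nearest. For Kcnq1 the log2 fold change was -0.41 ± 0.25 (edgeR adjusted p = 0.590), and -0.14 without mutant 1. Within a library, there were 0.448 and 0.701 Kcne1 reads per Kcnq1 read in mutant hearts against 1.00 and 1.29 in wild-type hearts. The mean difference of the log2 ratio was -1.02, with an exact two-sided permutation p of 0.333. The antisense transcript Kcnq1ot1 (row NR_001461) lies inside the Kcnq1 span on the other strand, with 33 and 29 reads in mutants 1 and 3 and 2 and 28 reads in wild types 1 and 2. Whether reads were assigned by strand is not given in any source at hand, so its reads and those of Kcnq1 cannot be told apart where they meet, though they are few beside the 310 to 536 reads of Kcnq1.

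Kcnh2 (chromosome 5, 23825407 to 23857422, minus strand) had the closest replicates of the 9 in both groups. It stood at 37.1 and 34.0 CPM in mutants 1 and 3 and at 48.0 and 46.5 CPM in wild types 1 and 2. The wild types were 1.03-fold apart and the mutants 1.09-fold, against 1.25-fold between the nearest libraries of the groups. Kcnh2 had a log2 fold change of -0.41 ± 0.20 (edgeR adjusted p = 0.520). With the correction for GC content and length it was -0.22, and the groups then overlapped. Kcnh2 has the most GC-rich transcript of the 9, at 61.3%.

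Kcnv2 (chromosome 19, 27397109 to 27411669, plus strand) was read thinly, with 17 and 21 reads in mutants 1 and 3 and 39 and 48 in wild types 1 and 2. This is 0.793 and 1.06 CPM against 1.74 and 2.41, the lower wild type being 1.63 times the higher mutant. Its log2 fold change was -1.15 ± 0.45 (edgeR adjusted p = 0.416), with a range of -1.45 to -0.91 over 13 alternatives, none of which made the call.

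**Figure D3:**
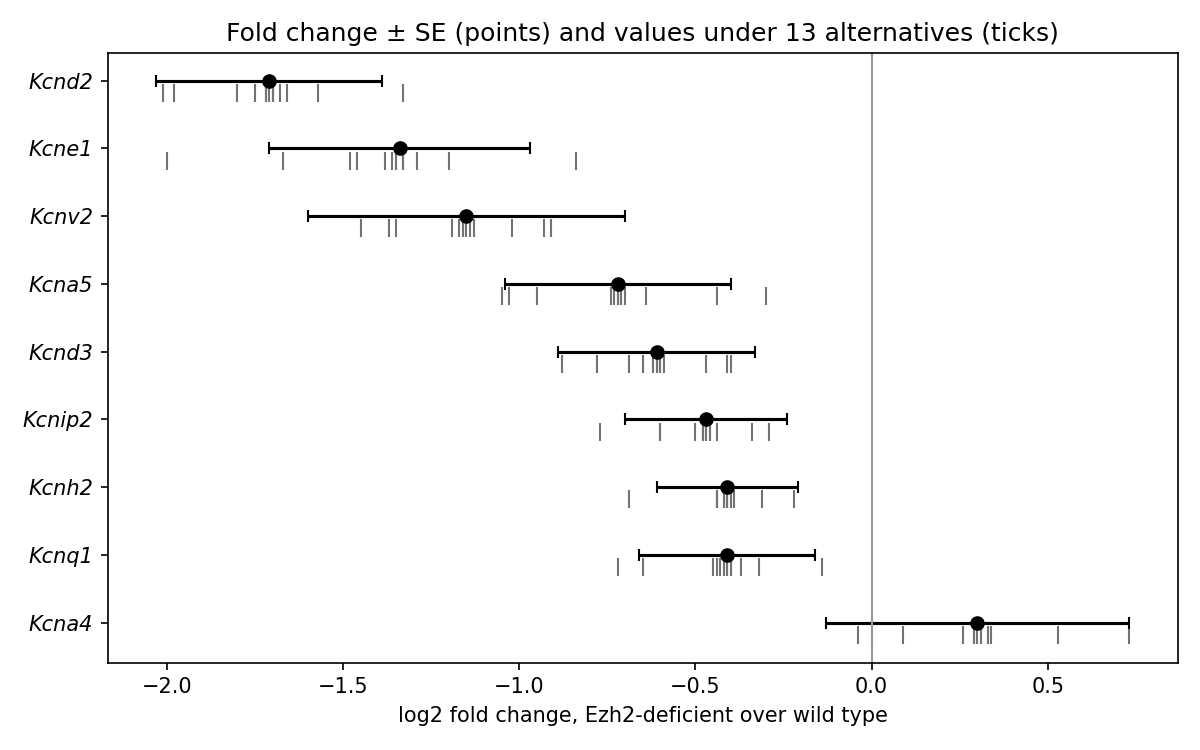
Log2 fold change of each gene, mutant over wild type, as a point with its SE, with grey ticks for the values under 13 alternatives of test, scaling, filter, rows and libraries. All ticks of 8 genes lie below 0, and those of Kcna4 lie on both sides.

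Set against all tested rows, the 9 genes spread widely in the size of their difference. Kcnd2, Kcne1 and Kcnv2 lay beyond -1 on the log2 scale, where 0.273%, 0.657% and 1.07% of tested rows had a lower value. Kcna5 and Kcnd3 lay at -0.72 and -0.61, with 4.48% and 6.73% of rows lower. Kcnip2, Kcnq1 and Kcnh2 lay between -0.47 and -0.41, with 11.4% to 14.8% of rows lower, and Kcna4 lay above the median. With scaling by total counts the median of all rows moved to -0.28 and that of the 9 genes to -0.88. Kcnip2, Kcnq1 and Kcnh2 then stood at -0.77, -0.72 and -0.69. With the correction for GC content and length the median of the 9 was -0.44, and 6 of them kept both mutants below both wild types, Kcnq1 and Kcnh2 having lost that order, while 23.4% of all rows lay lower in this way and 23.0% higher. Kcna4 then had both mutants above both wild types (log2 fold change 0.33, edgeR adjusted p = 0.724).

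**Figure D4:**
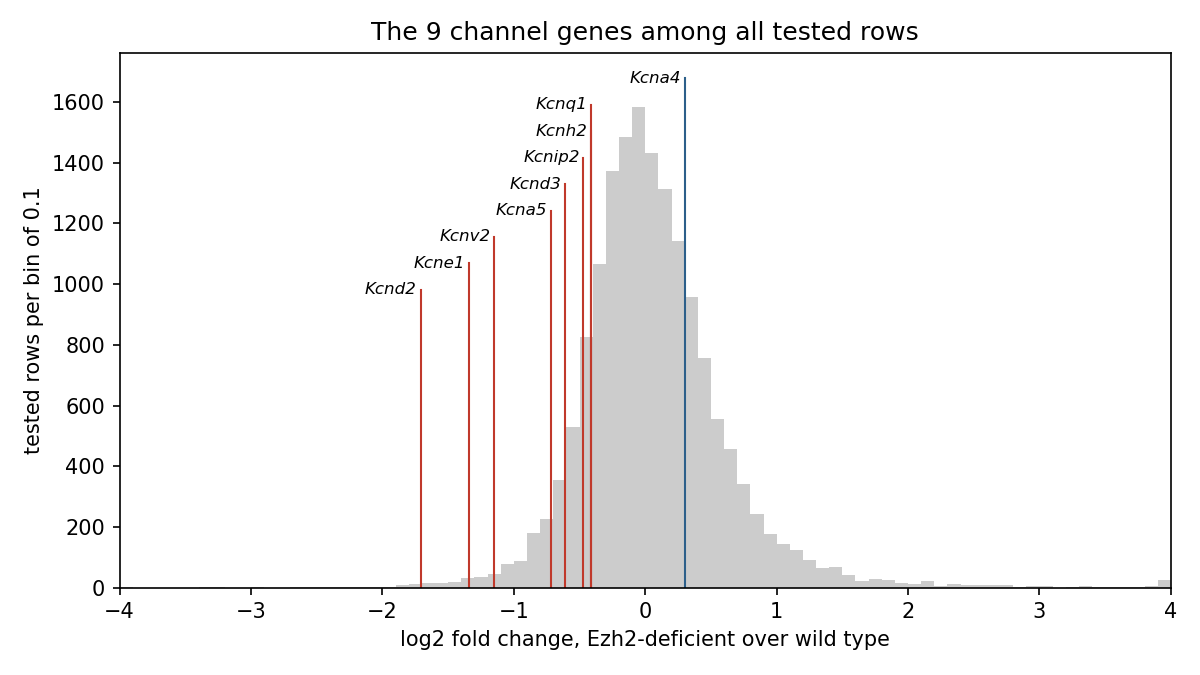
Histogram of the log2 fold changes of all 16128 tested rows, in bins of 0.1, with a vertical line at the value of each of the 9 channel genes (line heights only separate the names, and rows beyond the axis are drawn in the end bins). The lines of 8 genes lie left of 0, Kcnd2 farthest at -1.71, and that of Kcna4 lies right of it.

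Apart from the read ratios within a library given above, which are not corrected for length, levels of different genes were compared per length. The unit was TMM-scaled CPM per kb of the longest coding transcript. In the wild types Kcnip2 was highest at 18.6 CPM per kb, followed by Kcnh2 at 11.2, Kcne1 at 8.39, Kcnq1 at 7.70, Kcna5 at 4.94, Kcnd2 at 2.42 and Kcnd3 at 1.19. Kcnv2 (0.406) and Kcna4 (0.366) were lowest. The ranges of the wild-type pair overlapped between Kcne1 (7.53 to 9.24) and Kcnq1 (7.52 to 7.88), whose order differed between the wild-type hearts. Those of Kcnv2 and Kcna4 overlapped as well, though Kcnv2 was slightly higher within each wild type (0.340 against 0.269 and 0.473 against 0.462). In the mutants Kcnq1, at 5.80, stood above Kcne1, at 3.31, with ranges that did not overlap. Kcnd2, at 0.738, was near Kcnd3, at 0.781, with overlapping ranges. It was slightly lower than Kcnd3 within each mutant (0.797 against 0.840 and 0.679 against 0.721), where in the wild types it had been higher in both hearts. Kcna4, at 0.449, stood above Kcnv2, at 0.182. The nuclease treatment lowers abundant transcripts, so these orders describe reads and not RNA.

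The 9 transcripts ran from 2395 to 7169 bases with 44.4% to 61.3% GC. Kcnd2 and Kcna4 are among the 3282 most AT-rich rows. There the median log2 fold change was 0.13, and both mutants lay below both wild types in 13.7% of rows. In the other 3 bins of GC content the medians were -0.04, -0.05 and -0.06 and those shares 28.2%, 27.1% and 23.7%. Kcnd2 thus lay far below the median of the rows of like GC content, and Kcna4 lay above it at 0.30.

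The other genes of the pathway were read from 4 lists. Of 33 further pore genes of the voltage-gated families, 30 had a row, 7 were tested and 23 were too low, none of these above 17 reads in a library. Of the 7, 0 were called by edgeR or DESeq2, while 2 were lower and 0 higher by an unadjusted p below 0.05, and 6 of 7 had a log2 fold change below 0 (median -0.40). Kcna1, given above, was 1 of the 2 with an unadjusted p below 0.05.

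Of 13 listed auxiliary subunits, 12 had a row and 6 were tested. By edgeR or DESeq2 0 were called, and by an unadjusted p below 0.05 there were 0 in either direction, and 3 were below 0 and 3 above. Kcnip3, of the KChIP family, had 24 and 29 mutant reads against 9 and 20 wild-type reads, the opposite order to Kcnip2 (log2 fold change 0.89 ± 0.59, edgeR adjusted p = 0.624). The X-linked Kcne1l, a relative of Kcne1, had 6 and 6 against 21 and 12 (edgeR adjusted p = 0.506). Kcnab3, a cytoplasmic beta subunit gene, had 4 and 8 against 13 and 12 reads (edgeR adjusted p = 0.658).

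Of 12 listed scaffold and trafficking partners, 11 had a row and were tested, with 0 called by edgeR or DESeq2 and a median log2 fold change of -0.03. By an unadjusted p below 0.05, 1 was lower and 0 were higher. That gene was Nedd4l, a ubiquitin ligase that acts on ion channels, at 10.8 and 11.0 CPM in mutant hearts against 16.9 and 17.8 in wild-type hearts (log2 fold change -0.67 ± 0.22, edgeR adjusted p = 0.338). Cttn, the actin-binding cortactin gene, stood at 25.1 and 24.8 against 17.1 and 18.8 CPM (edgeR adjusted p = 0.472), and the actin crosslinker gene Flna at 87.0 and 73.8 against 103 and 99.4 CPM (edgeR adjusted p = 0.605). Of 15 transcriptional regulators tied to cardiac potassium channels or ventricular identity, all were tested and 0 were called by edgeR or DESeq2. By an unadjusted p below 0.05, 1 was lower and 0 were higher, and the median was -0.22. Nfatc3, the calcineurin-regulated factor linked to Kv4 expression in mouse ventricle, stood at 14.6 and 13.8 CPM in mutant hearts against 25.5 and 22.0 in wild-type hearts (log2 fold change -0.74 ± 0.22, edgeR adjusted p = 0.301). Tbx5 stood at 20.2 and 15.9 against 28.1 and 21.4 CPM (edgeR adjusted p = 0.552), and the muscle methyltransferase gene Smyd1 at 154 and 178 against 236 and 200 CPM (edgeR adjusted p = 0.563).

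Markers of the cell types that a ventricle can hold were read beside these results. The summed level of 10 cardiomyocyte markers was 57170 and 62649 CPM in mutant hearts against 56783 and 50643 in wild-type hearts, with 4 of 10 not overlapping as higher and 3 as lower. Over all tested rows, 22.3% did not overlap as higher and 22.4% as lower. The 8 fibroblast markers summed to 846 and 1003 against 1069 and 874 CPM, with 2 higher and 2 lower in this way, and the 8 endothelial markers to 537 and 674 against 678 and 597, with 1 and 1. Smooth muscle and pericyte markers (8 of 8 read) summed to 375 and 425 against 368 and 388 CPM, with 3 higher and 1 lower in this way. Macrophage markers (6 of 8 with a row) summed to 114 and 92.0 against 110 and 81.3, with 1 and 1. Neuron markers (8 of 8 with a row) summed to 2.71 and 4.41 against 3.47 and 2.31, with 0 and 0 of the 1 tested. The 6 atrial markers summed to 3460 and 3091 CPM in mutant hearts against 439 and 184 in wild-type hearts, with 4 of 5 tested members higher in both mutants. Nppa makes up most of that sum, and the atrial light chain gene Myl7 had 1658 and 1218 reads in mutant hearts against 665 and 54, with the atrial gene Bmp10 at 1, 0, 0 and 0. Conduction tissue markers (7 of 8 with a row) summed to 44.4 and 63.1 against 60.9 and 57.7 CPM, with 2 higher and 2 lower in this way and Isl1 at 0 in both wild types. The 8 fast skeletal muscle markers stood at 276 CPM in mutant 1 and at 16.8, 19.7 and 20.2 in mutant 3, wild type 1 and wild type 2. Without mutant 1 the log2 fold change of Kcnq1 went from -0.41 to -0.14 and that of Kcne1 from -1.34 to -0.84, while that of Kcnd2 was -1.80. The number of the 9 genes lower at an unadjusted p under 0.05 was then 1 in place of 3, beside 1.05% of all rows. The part of the atrial and other markers in these results was not tested.

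In the authors' deposited table of ratios of single libraries, 6 of the 9 genes (Kcnd2, Kcnip2, Kcna5, Kcnq1, Kcne1 and Kcnh2) had a ratio below 1, with p below 0.001, for each of the 4 pairings of mutant and wild type. Of the 21949 rows with a read, 8.64% did, and these rows include many read too thinly to reach such a p. The ratios follow reads over each library's total, without TMM scaling. With scaling by total counts, 40.4% of tested rows had both mutants below both wild types and 8.49% had both above. The ratios of Kcnd2 in the authors' deposited table were 0.381 and 0.241 for mutant 1 and 0.272 and 0.172 for mutant 3, over wild types 1 and 2. Those p-values compare 2 libraries and carry no spread between hearts.

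Likeness to Kcnd2 was measured as the Euclidean distance between log2 levels centred over the 4 libraries, among 8459 rows with a mean of at least 5 CPM. The nearest 5 were Celsr2 (distance 0.355), an atypical cadherin gene, Pdk4 (0.491), the pyruvate dehydrogenase kinase gene, Per1 (0.556), a clock gene, Lrtm1 (0.570), a leucine-rich repeat gene, and Fosl2 (0.627), an AP-1 factor gene. Celsr2 had 72 and 68 mutant reads against 178 and 213 wild-type reads, and Per1 466 and 361 against 767 and 1095. Of the other 8 channel genes, for which the distance was computed whatever their level, Kcnv2 was nearest to Kcnd2 at 0.713, followed by Kcne1 at 1.05 and Kcnd3 at 1.10, and Kcna4 was farthest at 2.06. Kcnv2 and Kcna4 lie below 5 CPM and so outside the rows compared. With 4 libraries these distances are a description only.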

How the data were processed

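RNA of the right ventricle of 4 mice was sequenced, 2 per group by the sample titles. The deposited table holds, per the file headers, the count of reads of every gene in each library, and the authors' CPM (reads over the library's total in the table), authors' ratio (fold) and p-value for each pair of libraries. Per the submitters' processing notes, TopHat 1.2.0, Cufflinks and build mm9 were used. Counting rule, strand and filters are not stated in these sources. Per the labels' protocols, libraries were treated with a duplex-specific nuclease. Starts are printed counted from 1. Counts were tested across all genes by the quasi-likelihood test of edgeR 4.0.16 in R 4.3.3, after filterByExpr (16128 rows kept) and TMM scaling, all 4 libraries, no covariate, two-sided, with Benjamini-Hochberg adjustment over all rows. An adjusted p under 0.05 is a call. The SE comes from the F statistic. The fit was tested on simulated data. Alternatives were DESeq2 1.42.0, limma-voom (limma 3.58.1), other scalings, filters and rows, a loess correction for GC content and transcript length (81.4% of tested rows had a transcript in GENCODE M21, a later assembly, used for length and GC only), and leaving out each library. Named outside the 9 genes were, per list, called genes or the 3 of smallest p, and the 5 rows most like Kcnd2. A gene that this rule names is not reported here. Genes of the marker lists, Kcnq1ot1 and the sex-linked genes are named outside that rule. So are Irx3, Irx4, Irx5, Klf15, Kcnd1 and Kcnc1 in the closing paragraph. The series describes 2 hearts per genotype, so p-values rest on the spread between their libraries. In that spread, differences between hearts and between library preparations cannot be told apart. The 9 genes, lists and tests were chosen with earlier results of these data known.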

Additional observations from a re-analysis of the deposited data

How the results depend on the processing

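No paired analysis was possible because the groups share only replicate number 1. Depth limits Kcnv2 and Kcna4, which had at most 48 and 49 reads in a library. The direction of 8 genes held in the 9 alternatives that keep all libraries, and where a library is left out it is fixed, since their groups do not overlap. Kcna4, at 0.30, turned to -0.000101 with total counts and ranged from -0.04 without wild type 1 to 0.73 without wild type 2 when a library was left out. The number of the 9 genes called lower, 0, became 2 by DESeq2, 2 with total counts (0.496% of all rows), 2 with no filter (0.310%), 1 with the GC and length correction (0.152%) and 0 to 4 when a library was left out (1 without mutant 3, 3 without wild type 1, and 4 without wild type 2, which were Kcnd2, Kcnip2, Kcna5 and Kcne1, with 0.0719%, 4.33% and 8.83% of all rows). The number lower at an unadjusted p under 0.05, 3 (4.38% of all rows), became 8 with total counts (12.3%, the median of all rows moving to -0.28), 6 without rows on X and Y and rows above 1% of a library (5.90%), 5 with the GC and length correction (6.94%) and 1 to 6 when a library was left out (1 without mutant 1, 5 without wild type 1, 6 without wild type 2, with 1.05%, 11.6% and 16.2% of all rows). The count of all rows called, 21, became 203 by DESeq2, 156 with total counts, 317 with no filter, 3 without rows on X and Y and abundant rows, 82 with the GC and length correction, and 63 to 3675 when a library was left out (63 and 109 without mutants 1 and 3, 2046 and 3675 without wild types 1 and 2). Of the 39 tested among the other 73 listed genes, 0 were called, and 0 to 12 when a library was left out (4 without wild type 1, 12 without wild type 2). At an unadjusted p under 0.05, 4 passed, 8 with total counts, 9 with the GC and length correction and 0 to 15 when a library was left out (1 and 0 without mutants 1 and 3, 15 without either wild type). Beside the 4 listed genes of the main fit, 4.38% of all tested rows passed at that unadjusted p as lower and 6.49% as higher. For the other settings only the share of all rows that were lower is at hand. The counts of listed genes under those settings thus have no like share beside them and are a description only. The cause of the moves between settings was not tested. A library left alone in its group is assumed to vary like the other group. The median of the 9 genes stayed between -0.88 and -0.39. When each library was left out, the difference in the Kcnd2 share ran from -21.0 to -15.7 points and that in the Kcne1 ratio from -1.34 to -0.70, with a sign fixed by groups that do not overlap, and that in the Kcnip2 ratio from 0.25 to 1.07.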

Other observations

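Iroquois factors are known regulators of Kcnd2 across the ventricular wall. Irx5, named after its values were seen, stood at 9.71 and 11.4 CPM in mutant hearts against 8.86 and 6.59 in wild-type hearts (log2 fold change 0.45 ± 0.27, edgeR adjusted p = 0.587). It was the single regulator of the 15 listed with a log2 fold change above 0, and did not pass the test. Irx3 and Irx4 of the same family had log2 fold changes of -0.15 ± 0.22 (edgeR adjusted p = 0.842) and -0.08 ± 0.26 (edgeR adjusted p = 0.933). Klf15, a factor known to act on Kcnip2, stood at 15.8 and 15.9 CPM in mutant hearts against 18.5 and 18.6 in wild-type hearts (log2 fold change -0.22 ± 0.21, edgeR adjusted p = 0.733), and was likewise named after its values were seen. Among pore genes with few reads in this tissue, Kcnd1, the remaining Shal-type gene, had 6 and 4 reads in mutant hearts against 0 and 8, and Kcnc1 had 17 and 9 against 9 and 2. Neither was tested.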
